A study of Mus musculus with 8 samples.

Results

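Adenosine receptor and clearance genes were followed through 18 cell clusters of the mouse striatum and 8 inbred strains. The members are 6 genes taken by name from a count table of 32285: the receptors Adora1, Adora2a and Adora3, the adenosine-forming ectoenzyme Nt5e, the nucleoside transporter Slc29a1 and the adenosine kinase Adk. All 6 had a row in every count table. Single nuclei of 32 mice were profiled for RNA, with open chromatin measured in the same nuclei, and the RNA is used here. Of the 8 strains, with 4 mice each and untreated as far as the labels say, WSB/EiJ, PWK/PhJ and CAST/EiJ are inbred from wild mice. The laboratory strains were A/J, NZO/HlLtJ, C57BL/6, NOD/ShiLtJ and 129S1/SvImJ. All mice were 12 weeks old. Each of the 4 batches pooled 1 mouse of every strain, 4 males and 4 females, and the labels do not give the sex of a single mouse. The C57BL/6 substrain is written as 6J in the design text and as 6NJ in the authors' table of nuclei.

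Adenosine is a breakdown product of ATP that acts as a signal outside cells, and in the striatum it works against dopamine. The receptor Adora1 couples to inhibitory G proteins and is widespread in the brain. Adora2a encodes a receptor that couples to stimulatory G proteins, is the hallmark adenosine receptor of indirect pathway projection neurons, which also carry the dopamine receptor Drd2, and is a target of caffeine. The receptor Adora3 is known from immune cells. Nt5e, also called CD73, removes the last phosphate from extracellular AMP. Slc29a1, also called ENT1, carries adenosine across the membrane in both directions, and Adk returns adenosine to AMP inside the cell.

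Promoter sequence from RefSeq (GRCm38.p6) is shown for the members with an accessible region of the deposited peak list over a window before an annotated transcript start. It places genes whose levels are described by cluster and strain below. Of the windows of a gene, the one closest to the centre of a peak is given, 5′ to 3′ on the strand of the gene, and capitals mark GC boxes (GGGCGG, or CCGCCC on the other strand, which may overlap one another). A GC box occurred in 32.7% of the 32851 windows of this length in the RefSeq table, and the median GC content of those windows was 52.4%.

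Nt5e (chr9:88327359-88327608, plus strand): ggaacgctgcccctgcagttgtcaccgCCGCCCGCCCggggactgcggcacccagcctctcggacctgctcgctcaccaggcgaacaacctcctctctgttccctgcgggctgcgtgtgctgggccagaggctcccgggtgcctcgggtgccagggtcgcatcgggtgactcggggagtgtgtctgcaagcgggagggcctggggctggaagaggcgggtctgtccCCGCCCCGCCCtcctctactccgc
Slc29a1 (chr17:45595531-45595780, minus strand): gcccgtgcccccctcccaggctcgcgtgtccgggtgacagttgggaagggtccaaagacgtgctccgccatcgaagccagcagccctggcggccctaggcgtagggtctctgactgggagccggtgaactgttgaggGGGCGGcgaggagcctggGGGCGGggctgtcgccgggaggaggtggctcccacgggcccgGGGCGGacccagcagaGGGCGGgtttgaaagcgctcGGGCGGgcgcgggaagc
Adk (chr14:21052324-21052573, plus strand): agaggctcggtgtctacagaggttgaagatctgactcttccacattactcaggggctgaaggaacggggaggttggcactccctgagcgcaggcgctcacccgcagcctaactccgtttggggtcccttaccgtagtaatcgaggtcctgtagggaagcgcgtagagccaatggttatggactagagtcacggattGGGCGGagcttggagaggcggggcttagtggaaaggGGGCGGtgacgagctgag
Adora3 (chr3:105904171-105904420, plus strand): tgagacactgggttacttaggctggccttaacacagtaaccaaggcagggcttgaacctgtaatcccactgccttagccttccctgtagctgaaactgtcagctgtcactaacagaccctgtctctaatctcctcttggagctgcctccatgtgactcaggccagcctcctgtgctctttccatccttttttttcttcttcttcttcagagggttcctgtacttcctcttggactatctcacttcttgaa

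The Slc29a1 window held 5 GC boxes at 73.2% GC, and the peak centre lay 15 bases downstream of the transcript start. For Nt5e there were 4 GC boxes at 72.0% GC, with the peak centre 57 bases upstream (-57). The Adk window held 2 GC boxes at 58.8% GC, and its peak centre lay 71 bases downstream. Adora3 had no GC box (0) at 48.8% GC, and its peak centre lay 92 bases downstream. Adora1 (chr1:134199215-134235457) had 2 windows without a peak. Adora2a (chr10:75316877-75334792) had no window (0) in the RefSeq table, so its promoter was not examined, and 5 peaks lay over its span. The span of Adk, chr14:21052574-21448569, is 395996 bases long and held 66 peaks, against 11 over Nt5e (chr9:88327609-88372089) and 4 over Slc29a1 (chr17:45585200-45599618). Whether a count came from an exon or an intron is not given in the sources used here. Adora1 shares its span with Mybph, and Adora3 (chr3:105904421-105908928) lies inside the span of Tmigd3, so their counts may not be fully separate.

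Of 89339 barcodes, 55672 carried a cluster name from the authors, and a mouse contributed 944 to 4416 of these nuclei with 3785535 to 23245935 counts. The A/J mouse of batch 2 had the most nuclei. A nucleus held a median of 1432 UMIs (unique molecules) in macrophages, 1640 in oligodendrocytes, 2220.5 in astrocytes, 5953 in Drd2+ and 6505 in Drd1+ neurons. Of 54141 distinct barcodes among the named nuclei, 1517 occurred in more than 1 batch, and nuclei were therefore identified by batch and barcode. Defining markers went with the names of the clusters used most: Drd1 and Pdyn in Drd1+ neurons, Drd2, Penk and Gpr6 in Drd2+ neurons, and all listed markers of oligodendrocytes, astrocytes and macrophages in theirs. Pde10a, Rgs9 and Bcl11b, listed for projection neurons in general, were highest in Drd2+ neurons, and Ppp1r1b, of the same list, was highest in the cluster Unknown_2 (183 CPM, against 159.8 in Drd1+ and 157 in Drd2+ neurons). The remaining listed markers of the pathways peaked elsewhere. Isl1 was at 23.6 CPM in Drd1+ neurons and highest in Chat+ interneurons (143), Ebf1 was at 383 and highest in mural cells (1225), and Sp9 was at 17.1 in Drd2+ neurons and highest in the cluster Unknown (86.1). Levels are CPM, the counts of a gene per 1000000 counts in the library, a library being the summed nuclei of 1 mouse in 1 cluster. Nuclear RNA is measured, so a level need not follow the RNA of the whole cell. Reads of 8 genomes went into 1 set of gene rows, and the part of sequence differences between strains in these counts was not tested.

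In the main fit every member tested in the large Drd1+ and Drd2+ clusters differed between strains, as did most genes tested there. Fewer did in the other clusters, the second Drd1+ cluster included, where libraries were also smaller. The median library held 3011717 counts in Drd1+ neurons, 225185 in the second Drd1+ cluster and 113960 in macrophages. The part of depth in these calls was not tested. A gene was called when its strain term passed an adjusted p of 0.05 in edgeR. In Drd1+ neurons 5 of 5 members tested were called, where 61.7% of all genes tested were, and in Drd2+ neurons 5 of 5, where 55.9% were. Under some alternatives given below, Adora1 lost its call in both clusters and Adora2a in Drd2+ neurons. In oligodendrocytes 2 of 4 were called (Nt5e and Adk, with 34.8% of all genes), in astrocytes 1 of 3 (Adk, with 21.5%) and in the second Drd1+ cluster 1 of 2 (Adk, with 17.3%). In macrophages 0 of 2 were called (24.8% of all genes), as in endothelium (0 of 2, with 3.23%), Nxph1+ interneurons (0 of 1, with 1.53%) and the cluster Polydendrocyte/Oligodendrocyte (0 of 1, with 1.24%). In these last 4 clusters no member (0) had an unadjusted p under 0.05 in edgeR, and DESeq2 also called 0. Members absent from a cluster's test had too few counts there. The span between the highest and the lowest strain had a median of 0.88 on the log2 scale over the 5 members in Drd1+ neurons, beside 0.65 over all genes tested. In the Drd2+ cluster it was 0.76 beside 0.64, and in oligodendrocytes 0.66 beside 0.68. With the nuclei of a mouse summed over all clusters, 5 of 6 members were called, all but Adora3, beside 66.7% of all genes. In these sums fewer nuclei of a type and less RNA per nucleus cannot be told apart.

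Each strain was also compared with the average of the remaining 7 in the same fits. In Drd1+ neurons 11 of 40 such contrasts of members were called, where 20.4% of contrasts over all genes were called. In Drd2+ neurons 11 of 40 were called, beside 17.7%. In oligodendrocytes 4 of 32 were called (10.5% over all genes), in astrocytes 1 of 24 (4.95%) and in macrophages 1 of 16 (7.04%). Over the sums of all nuclei 15 of 48 were called (22.8%). Contrasts of strains share mice, since the average of the remaining 7 always holds most of the same animals.

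**Figure D1:**
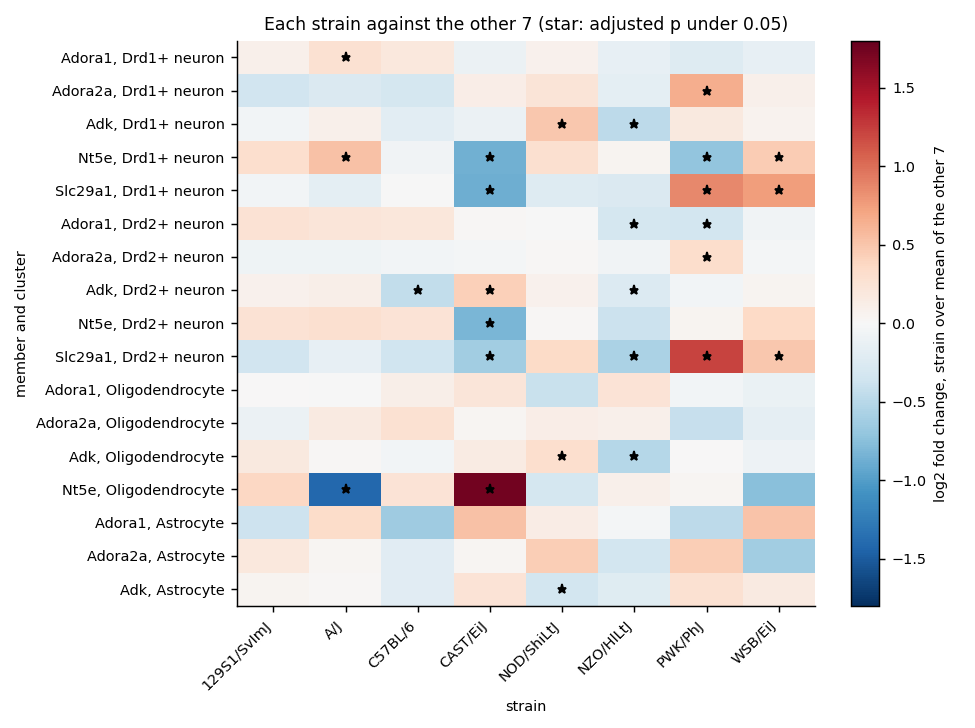
Difference of each strain (columns) from the mean of the other 7 as a log2 fold change (colour) for each member and cluster tested (rows), with a star at an adjusted p under 0.05 in edgeR. Red for Nt5e in CAST/EiJ oligodendrocytes (1.74) stands beside blue for the same gene in CAST/EiJ Drd1+ (-0.86) and Drd2+ neurons (-0.82).

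Adora2a was concentrated in Drd2+ neurons. It stood at 169 ± 25.1 CPM there (SD, n = 32 mice), with a range of 122 to 242, and this cluster held 13471 of its 16176 counts, or 83.3%. Clusters were built by the authors from the same counts, so differences between them are described without a test. Next came mural cells at 75.3 ± 46.5 CPM (n = 20), endothelium at 45.3 ± 26.0 (n = 29) and ependyma at 42.9 ± 39.4 (n = 12). The step from the Drd2+ mean to the mural mean was larger than their SDs together, although single mural libraries (15.7 to 203) reached into the Drd2+ range, and no such step followed further down the order. Drd2 itself stood at 161 ± 130 CPM in mural cells and 77.8 ± 50.9 in endothelium, and the part of neuronal RNA in the Adora2a values of these clusters was not tested.

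Drd1+ neurons, which make up the direct pathway, were near the bottom of the order for Adora2a. The level in Drd2+ neurons exceeded that in Drd1+ neurons in 32 of 32 mice, by 3.90 ± 0.35 on the log2(CPM + 1) scale. A UMI of Adora2a was found in 59.8% of Drd2+, 5.85% of Drd1+ and 3.90% of oligodendrocyte nuclei. After thinning each nucleus to 1000 UMIs these shares were 14.99%, 0.962% and 2.06%. The share in Drd1+ nuclei (median 6505 UMIs) lay below that in oligodendrocyte nuclei (median 1640 UMIs) and is not read as expression above background, and the part of free RNA in either share was not tested. Without nuclei that held a UMI of Drd2, Gpr6 or Penk, 9132 of 15395 Drd1+ nuclei remained, and their Adora2a level was 6.68 ± 2.63 CPM.

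PWK/PhJ mice had the highest mean Adora2a in both the large Drd1+ and the Drd2+ cluster. In Drd2+ neurons the 4 PWK/PhJ mice (batches 1 to 4) were at 210.2, 194, 242 and 193 CPM, against 163 ± 19.5 (122 to 208) in the other 28. Within every batch the PWK/PhJ mouse was the highest of the 8, although the ranges overlapped across batches. The difference was 0.32 ± 0.06 (log2 fold change ± SE, adjusted p = 7.0e-05). The strain term itself had an adjusted p of 0.00475, but 0.0892 without the batch block and 0.0898 without batch 1, while the PWK/PhJ contrast kept an adjusted p of at most 0.00344 under every alternative run. In Drd1+ neurons the PWK/PhJ mice were at 16.4, 13.9, 18.3 and 15.3 CPM, the others at 6.56 to 15.2, and the difference was 0.66 ± 0.14 (adjusted p = 2.0e-04). The summed indirect pathway markers (4 of 4 detected) averaged 146 CPM in PWK/PhJ Drd1+ libraries, 211 in A/J and 92.5 to 117 in the other strains. This sum was mostly Penk, at 104.6 CPM in Drd1+ neurons over all strains, with Drd2 at 11.9, Gpr6 at 5.96 and Sp9 at 2.47. Among nuclei without a UMI of Drd2, Gpr6 or Penk the PWK/PhJ mean was 10.3 ± 3.80 CPM and that of the other mice 6.17 ± 2.05, with overlapping ranges. The part of Drd2+ neuron RNA in this Drd1+ difference was not tested. The interaction of strain and cluster for Adora2a between Drd1+ and Drd2+ neurons had an adjusted p of 0.386. In oligodendrocytes PWK/PhJ had the lowest mean (14.2 ± 10.5 CPM, against 19.5 to 24.4 in the other strains), and the strain term there was not called (adjusted p = 0.743).

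Adora1 was spread over neurons and glia without a dominant cluster. It was highest in the first Slc17a7+ cluster, at 66.8 ± 24.5 CPM (n = 20), followed by oligodendrocytes at 55.2 ± 10.3 (n = 32) and the cluster Polydendrocyte/Oligodendrocyte at 41.6 ± 29.4 (n = 27). Then came the second Drd1+ cluster at 39.9 ± 12.1, astrocytes at 32.6 ± 14.2, Drd1+ neurons at 31.0 ± 5.27 and Drd2+ neurons at 30.2 ± 5.23. Macrophages (15.7 ± 12.0) and the cluster Unknown (15.3 ± 17.3) were lowest. No neighbours in this order had means further apart than their SDs together. The paired log2 difference of Drd2+ over Drd1+ neurons was -0.04 ± 0.26, with 15 of 32 mice higher in Drd2+ neurons.

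Strain differences of Adora1 were small, and their calls in Drd1+ and Drd2+ neurons were lost when single batches were left out. Calls over all genes also fell with fewer mice, in Drd1+ neurons from 8283 to 6636 without batch 2. In Drd1+ neurons the A/J mice were at 30.7, 36.5, 39.6 and 34.0 CPM, inside the range of the others (19.7 to 43.8), with a difference of 0.28 ± 0.09 (adjusted p = 0.0253). That call was lost without batch 2 (0.239), without its A/J mouse alone (0.210), without batch 1 (0.0687) and without the batch block (0.0726). The strain term in Drd1+ neurons (adjusted p = 0.0149) rose to 0.0641 without batch 2, 0.0709 without batch 1, 0.0534 without the batch block and 0.0532 without the A/J mouse of batch 2. In Drd2+ neurons NZO/HlLtJ averaged 24.9 ± 4.77 CPM and PWK/PhJ 25.5 ± 4.64, against 30.9 in the others of each contrast (both -0.32, adjusted p = 0.0364 and 0.0243). Each of these calls was lost without batch 1 (0.25 and 0.0838) and without batch 2 (0.159 and 0.193), and the NZO/HlLtJ call also without batch 3 (0.0974) and without the batch block (0.0629). The strain term in Drd2+ neurons (0.00371) was not called without batch 2 (0.119). In oligodendrocytes, where Adora1 was more abundant than in either neuron cluster, the strain term had an adjusted p of 0.194. The interaction of strain and cluster for Adora1 had an adjusted p of 0.870 between Drd1+ and Drd2+ neurons, 0.108 with oligodendrocytes and 0.0615 with astrocytes in place of the Drd2+ neurons.

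Adora3 was almost confined to macrophages, the cluster that also carries the microglial markers. Macrophages held 330 of 359 counts, or 91.9%, at 83.3 ± 49.9 CPM (n = 32, range 0 to 223). A UMI of Adora3 was present in 287 of 2638 macrophage nuclei, 10.9%. The remaining 29 counts were spread over 7 other clusters, and in 10 of 18 clusters no count (0) was found. In Nxph1+ interneurons 0 of 1222 nuclei held a UMI, which allows a share of up to 0.245%, and in endothelium 0 of 851, which allows up to 0.353%. These limits hold for nuclei with a UMI, not for nuclei that express the gene. Tmigd3, whose span contains Adora3, had 71 of 110 counts in macrophages, at 17.9 ± 15.5 CPM. Of the macrophage nuclei with an Adora3 UMI 4.53% also held one of Tmigd3, against 2.25% of those without.

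Strains could not be separated by Adora3. In CAST/EiJ, the lowest by mean, the 4 mice were at 67.5, 37.2, 0 and 73.4 CPM, and in PWK/PhJ, the highest, at 82.8, 52.7, 147 and 146. The ranges of these extremes overlapped, and a library held only 0 to 24 Adora3 counts. The strain term had an adjusted p of 0.591, so no difference was detected, and the part of the low counts in this was not tested.

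**Figure D2:**
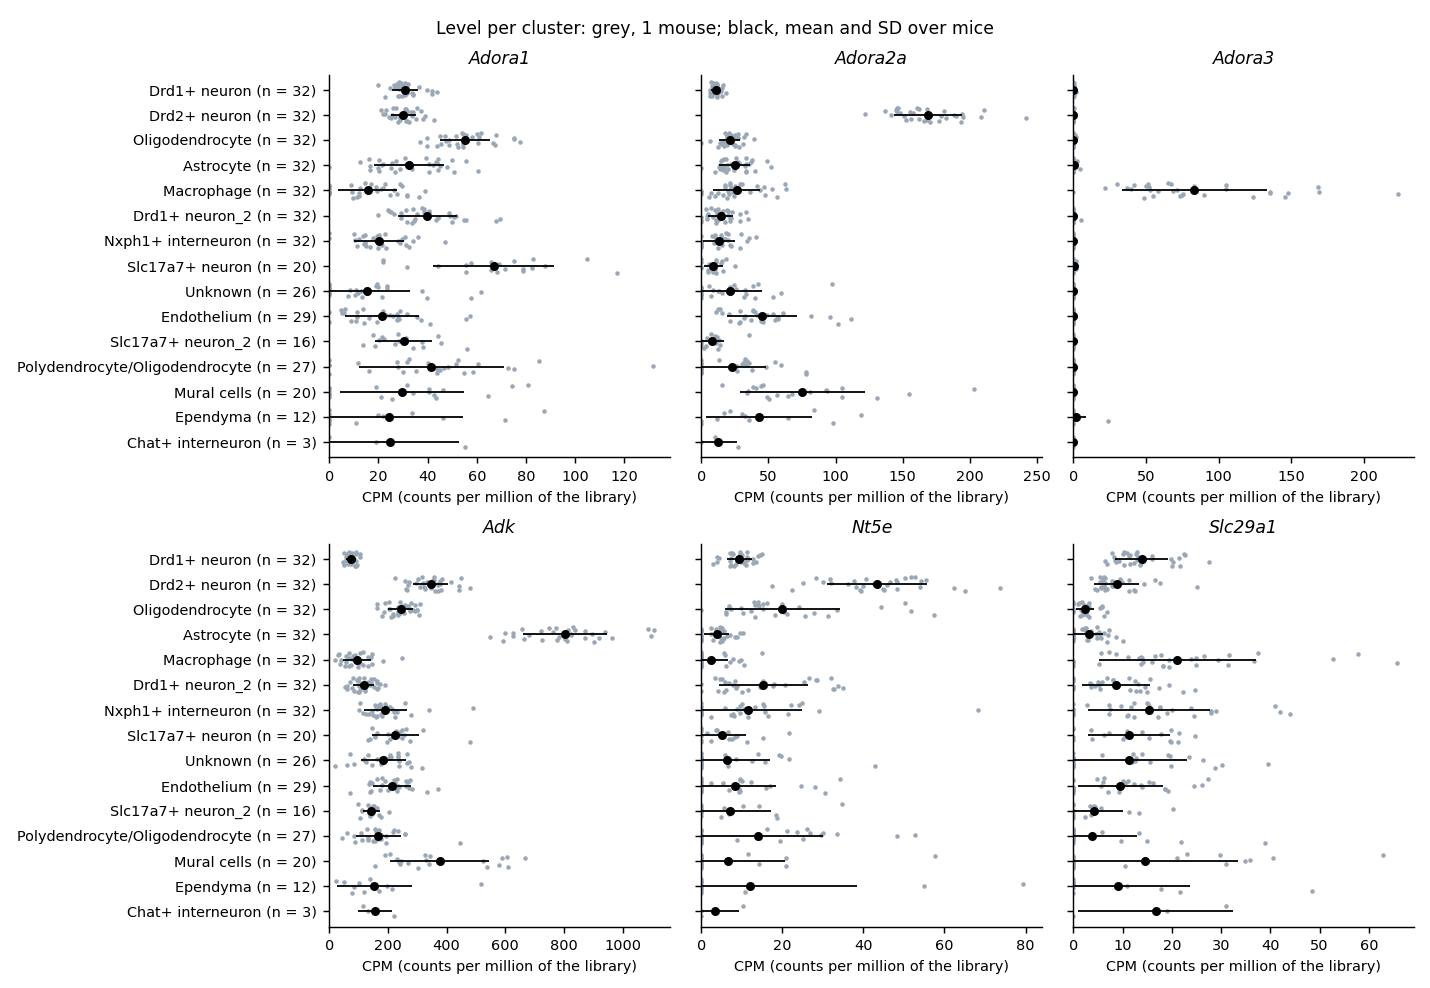
Level of each member (CPM, horizontal axis, 1 panel per gene) by cluster (vertical axis), with grey points for mice and a black mean with SD. Adora2a stands out in Drd2+ neurons (mean 169 CPM), Adora3 in macrophages (83.3) and Adk in astrocytes (803), while the means of Adora1 run from 15.3 to 66.8 without a step larger than the SDs of neighbours together.

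Nt5e was highest in Drd2+ neurons on average. Drd2+ neurons were at 43.4 ± 12.3 CPM (n = 32, range 17.6 to 73.7) and held 66.1% of 5469 counts. Oligodendrocytes followed at 19.997 ± 14.1 CPM (range 0 to 57.5), but at 15.6 ± 8.01 without the CAST/EiJ mice, which is close to the second Drd1+ cluster at 15.3 ± 10.98. The cluster Polydendrocyte/Oligodendrocyte was at 13.9 ± 16.1, ependyma at 12.1 ± 26.4, Nxph1+ interneurons at 11.5 ± 13.3, Drd1+ neurons at 9.40 ± 3.10 and astrocytes at 3.80 ± 3.15. Macrophages held 10 counts, at 2.42 CPM. In 32 of 32 mice Nt5e was higher in Drd2+ than in Drd1+ neurons, by 2.11 ± 0.48 on the log2(CPM + 1) scale. At 1000 UMIs per nucleus, 4.21% of Drd2+, 1.83% of oligodendrocyte, 0.832% of Drd1+, 0.324% of astrocyte and 0.354% of macrophage nuclei held a UMI of Nt5e, and so did 0.881% in the cluster Polydendrocyte/Oligodendrocyte and 0.590% in ependyma. The share in oligodendrocytes was above those in astrocytes and macrophages.

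The CAST/EiJ strain reversed this order. In oligodendrocytes the 4 CAST/EiJ mice were at 50.2, 44.4, 51.7 and 57.5 CPM, from 97 counts in 1073 nuclei. The other 28 mice lay between 0 and 33.5 CPM with a mean of 15.6 ± 8.01, so the groups did not overlap and the CAST/EiJ mouse was the highest of its batch in 4 of 4 batches. The difference was 1.74 ± 0.22 on the log2 scale (adjusted p = 1.5e-10), and the strain term had an adjusted p of 3.3e-10. In neurons, where the strain term had an adjusted p of 3.6e-05 (Drd1+) and 0.00244 (Drd2+), the same mice were low. Their Drd2+ libraries were at 28.3, 30.0, 17.6 and 22.3 CPM, against 46.1 ± 10.5 (25.0 to 73.7) in the other mice (-0.82 ± 0.18, adjusted p = 0.00084). Their Drd1+ libraries were at 7.12, 4.02, 7.06 and 2.86 CPM, against 9.99 ± 2.76 (3.92 to 14.97) in the others (-0.86 ± 0.20, adjusted p = 0.00068). Both neuronal ranges overlapped those of the other strains, and the CAST/EiJ mouse was lowest in 3 of 4 batches in each. Nt5e was higher in oligodendrocytes than in Drd2+ neurons in 4 of 4 CAST/EiJ mice, with a log2 ratio of 1.05 ± 0.44, and in 0 of 28 other mice, with -1.70 ± 1.05.

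The opposing directions were tested as an interaction of strain and cluster between Drd1+ neurons and oligodendrocytes of the same mice. Nt5e had an adjusted p of 1.9e-11 there (7.1e-23 to 6.4e-06 over the alternatives) and was the 1 of 5 members called, beside 16.9% of all genes. Between Drd1+ and Drd2+ neurons, where CAST/EiJ moved the same way, the interaction had an adjusted p of 0.0645. It was called without batch 4 (0.0117) and without a filter on low counts (0.0184), and under none of the other alternatives. The marker lists in CAST/EiJ oligodendrocytes were compared with those of the other strains, and the part of other cells in the result was not tested. The indirect pathway markers summed to 229 CPM in CAST/EiJ and 217 to 243 over all strain means, and the oligodendrocyte markers to 19799 CPM and 18901 to 21559 (all 4 markers of each list detected). Penk made up most of the indirect pathway sum, at 196 CPM in oligodendrocytes over all strains. The summed direct pathway markers (35.6 CPM, against 28.5 to 34.3 in the other strains) and macrophage markers (55.1, against 44.7 to 55.02) were highest in CAST/EiJ, and the fibroblast markers (0.840, against 1.08 to 6.43) lowest. Drd1+ nuclei without a UMI of Drd2, Gpr6 or Penk gave the same order of strains at the low end, with 4.63 ± 0.84 CPM in CAST/EiJ and 4.73 ± 1.49 in PWK/PhJ.

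Calls for Nt5e in other strains came from Drd1+ neurons and oligodendrocytes, and A/J was called in opposite directions in these. PWK/PhJ was low in Drd1+ neurons, at 7.94, 4.27, 3.92 and 7.14 CPM (-0.71 ± 0.19, adjusted p = 0.00314), while its Drd2+ mean of 45.2 ± 11.4 CPM was close to the 43.2 of the other mice. A/J was low in oligodendrocytes, at 13.9, 6.90, 0 and 5.99 CPM, from 26 counts in 2102 nuclei (-1.41 ± 0.29, adjusted p = 0.00019). The A/J library at 0 held 459584 counts in all, so that 3 counts would have given 6.53 CPM. In Drd1+ neurons A/J was at 11.3, 13.9, 11.3 and 10.7 CPM (0.53 ± 0.14, adjusted p = 0.00625), a call lost without batch 2 (0.220) or without its A/J mouse alone (0.182). WSB/EiJ was at 14.6, 12.8, 13.4 and 8.20 CPM (0.46 ± 0.16, adjusted p = 0.0433), and that call was lost without batch 1 (0.188), batch 2 (0.176) or batch 3 (0.146) and without the batch block (0.0633).

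**Figure D3:**
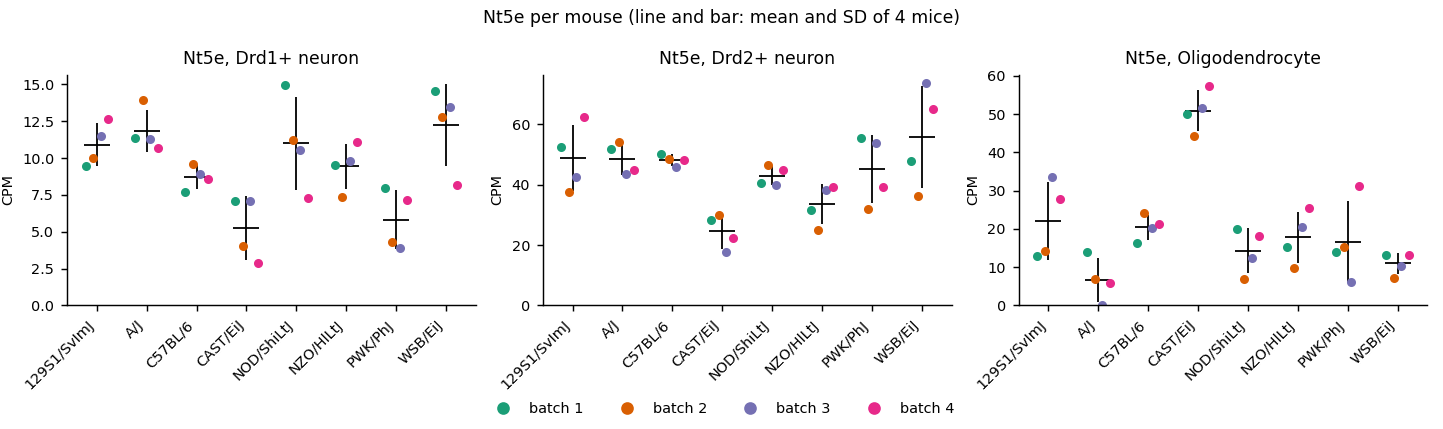
Nt5e level (CPM, vertical axis) of each mouse by strain (horizontal axis) in Drd1+ neurons, Drd2+ neurons and oligodendrocytes, with bars for the mean and SD of 4 mice. The 4 CAST/EiJ mice lie at 44.4 to 57.5 CPM in oligodendrocytes, above all others, and at 17.6 to 30.0 CPM in Drd2+ neurons.

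Slc29a1 was sparse, with 2704 counts in all, and Drd1+ neurons held 52.6% of them. Its level was 13.9 ± 5.37 CPM in Drd1+ and 8.81 ± 4.53 in Drd2+ neurons (n = 32 each), and only 2 of 32 mice were higher in Drd2+ neurons (log2 difference -0.64 ± 0.43). Macrophages stood at 21.1 ± 15.9 CPM from 77 counts, Nxph1+ interneurons at 15.3 ± 12.4, astrocytes at 3.10 ± 3.01 and oligodendrocytes at 2.45 ± 1.85. Fibroblast nuclei, pooled over mice because few had 10 of them, gave 47.3 CPM from 12 counts. Oligodendrocyte libraries lay between 0 and 6.84 CPM and astrocyte libraries between 0 and 10.0, while the spreads of the other clusters overlapped, and no neighbours in the order had means further apart than their SDs together.

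Slc29a1 divided the wild-derived strains, with a strain term of adjusted p = 4.5e-09 in Drd1+ and 2.5e-07 in Drd2+ neurons. In Drd1+ neurons PWK/PhJ was at 22.5, 21.4, 27.5 and 20.1 CPM (0.86 ± 0.12, adjusted p = 1.7e-07) and WSB/EiJ at 22.7, 19.8, 20.2 and 21.7 CPM (0.75 ± 0.12, adjusted p = 8.8e-06). CAST/EiJ was at 7.88, 8.35, 6.52 and 6.96 CPM, below all 28 other mice (8.49 to 27.5), with a difference of -0.88 ± 0.16 (adjusted p = 2.3e-05). The highest mouse of every batch was from PWK/PhJ or WSB/EiJ, the lowest always from CAST/EiJ, and the 5 remaining strains had means of 11.3 to 12.9 CPM. In Drd2+ neurons PWK/PhJ was highest in 4 of 4 batches, at 16.5, 17.7, 25.0 and 12.5 CPM against 7.501 ± 2.52 (3.59 to 14.3) in the others (1.21 ± 0.16, adjusted p = 5.0e-08). WSB/EiJ was at 11.4, 14.3, 5.72 and 11.3 CPM (0.48 ± 0.17, adjusted p = 0.0439), a call lost without batch 1 (0.232), 2 (0.340) or 4 (0.115) and without the batch block (0.0694). CAST/EiJ was at 3.59, 5.33, 7.99 and 6.53 CPM (-0.63 ± 0.22, adjusted p = 0.0280, and 0.266 and 0.159 without batches 1 and 2). NZO/HlLtJ averaged 5.75 ± 0.70 CPM (-0.57 ± 0.21, adjusted p = 0.0485), a call lost without any 1 of the 4 batches (0.102 to 0.148), without the batch block (0.0565) and without the A/J mouse of batch 2 (0.0546). The interaction of strain and cluster between Drd1+ and Drd2+ neurons had an adjusted p of 0.278 for Slc29a1.

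**Figure D4:**
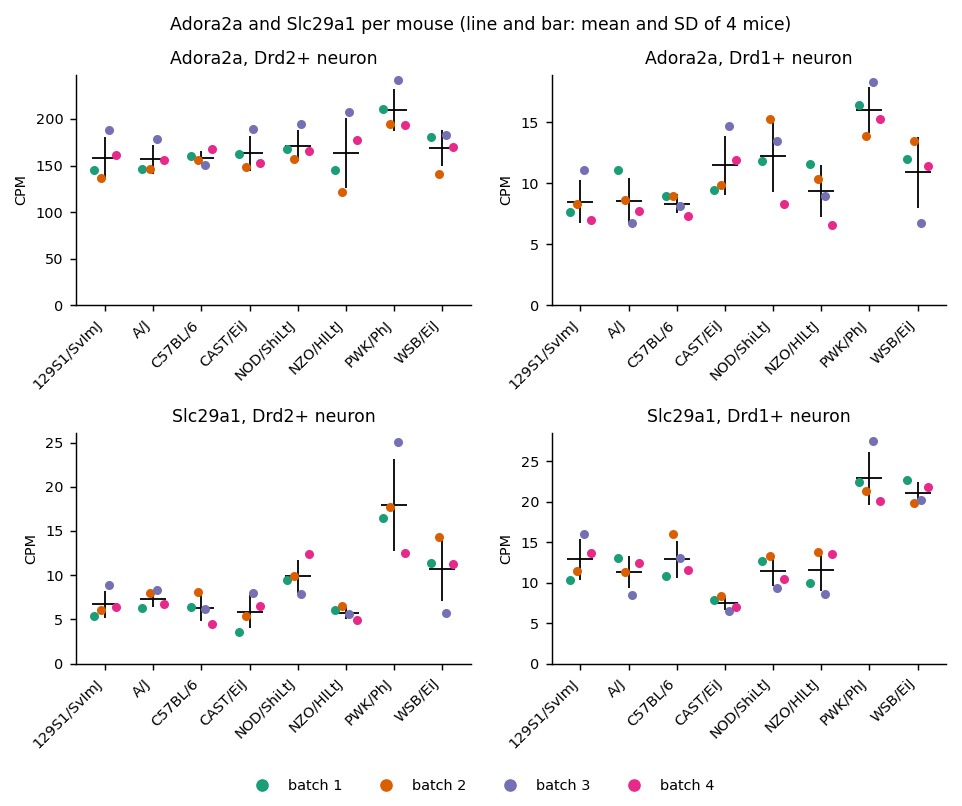
Adora2a and Slc29a1 levels (CPM, vertical axes) of each mouse by strain (horizontal axes) in Drd2+ and Drd1+ neurons, with bars for the mean and SD of 4 mice. PWK/PhJ has the highest mean in every panel, for instance 17.9 CPM for Slc29a1 in Drd2+ neurons against 7.501 in the other mice.

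Adk, the main route of adenosine removal inside cells, was highest in astrocytes. Astrocytes were at 803 ± 144 CPM (n = 32, range 549 to 1109), mural cells at 377 ± 168 (n = 20), Drd2+ neurons at 346 ± 60.9 and oligodendrocytes at 243 ± 42.5. Drd1+ neurons were the lowest of the clusters with at least 3 mice, at 74.0 ± 15.1 CPM (48.2 to 105), below the second Drd1+ cluster (117 ± 36.1) and macrophages (94.9 ± 48.2). The step from astrocytes to mural cells was larger than their SDs together. Mural nuclei also held Drd2, at 161 ± 130 CPM, and the part of neuronal RNA in their Adk level was not tested. Of the 57250 Adk counts, the numerous Drd2+ neurons held 49.2% and astrocytes 15.8%. Every mouse (32 of 32) had more Adk in Drd2+ than in Drd1+ neurons, by 2.21 ± 0.30 on the log2(CPM + 1) scale. Leaving out Drd1+ nuclei with a UMI of Drd2, Gpr6 or Penk gave 72.1 CPM, less than 1 SD from the value with them.

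The strains at the extremes of Adk changed between some clusters and recurred in others. NZO/HlLtJ was lowest in the fits of Drd1+ neurons, oligodendrocytes and the second Drd1+ cluster. It was also lowest in macrophages and Nxph1+ interneurons, where the strain term was not called. The strain term of Adk had an adjusted p of 6.7e-06 in Drd1+ neurons, 5.7e-07 in Drd2+ neurons and 2.5e-05 in oligodendrocytes. In Drd1+ neurons NOD/ShiLtJ was at 104, 105, 93.0 and 93.2 CPM, highest in 4 of 4 batches (0.48 ± 0.08, adjusted p = 4.1e-05), and NZO/HlLtJ at 60.3, 59.5, 48.2 and 52.1 (-0.47 ± 0.09, adjusted p = 1.4e-04). In Drd2+ neurons the extremes were CAST/EiJ, at 449.8, 415, 443 and 441 CPM (0.42 ± 0.07, adjusted p = 5.3e-06), and C57BL/6, at 224, 272, 269 and 262 (-0.44 ± 0.07, adjusted p = 2.9e-05). The C57BL/6 mouse was lowest and the CAST/EiJ mouse highest in 3 of 4 batches each, with the 129S1/SvImJ mouse at the other end in the remaining ones. NZO/HlLtJ averaged 293 ± 20.1 CPM in Drd2+ neurons (-0.25 ± 0.07, adjusted p = 0.0115, and 0.0872 and 0.0571 without batches 3 and 4).

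In glia the low strain was NZO/HlLtJ in oligodendrocytes, at 164, 162, 187 and 182 CPM, below every other mouse (189.8 to 311), a difference of -0.51 ± 0.09 (adjusted p = 3.1e-05). NOD/ShiLtJ oligodendrocytes were at 311, 271, 293 and 307 CPM (0.30 ± 0.08, adjusted p = 0.00605, and 0.127 without batch 4). In astrocytes the strain term had an adjusted p of 0.00147 (0.0565 without batch 1). NOD/ShiLtJ, the highest strain in Drd1+ neurons and oligodendrocytes, was the lowest in astrocytes, at 657, 625, 549 and 775 CPM (-0.33 ± 0.10, adjusted p = 0.0440). That contrast was lost without batch 1 (0.238), 2 (0.256) or 3 (0.159), without the batch block (0.0968) and without the A/J mouse of batch 2 (0.0537). CAST/EiJ (964 ± 173) and PWK/PhJ (934 ± 126) had the highest astrocyte means, and neither contrast was called. The CAST/EiJ library of batch 3 held 23 nuclei. In the second Drd1+ cluster the strain term (0.0229) was lost without batch 1 (0.186) or 3 (0.223), with DESeq2 (0.0579) and without a filter on low counts (0.0515). In macrophages CAST/EiJ was at 145, 248, 183 and 115 CPM (0.94 ± 0.29, adjusted p = 0.0201, and 0.120 and 0.133 without batches 1 and 2), while the strain term over all 8 strains had an adjusted p of 0.168. The astrocyte markers (4 of 4 detected) summed to 620 CPM in CAST/EiJ macrophages, within the strain means of 514 to 825 that left out only 129S1/SvImJ (4612). Pooled over all strains, 129S1/SvImJ included, Slc1a3 of this list stood at 799.8 CPM in macrophages, Gja1 at 49.6 and Aqp4 at 25.3. The part of astrocyte RNA in the Adk level of CAST/EiJ macrophages was not tested. Their library of batch 3 held 24 nuclei and 27325 counts.

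Whether these strain effects on Adk differed between clusters was tested within mice. The interaction between Drd1+ and Drd2+ neurons had an adjusted p of 1.2e-04 (3.4e-20 to 0.0262 over the alternatives), and Adk was the 1 of 5 members called, where 4.58% of all genes were. The log2 ratio of Drd2+ over Drd1+ neurons ran from a strain mean of 1.86 ± 0.15 (NOD/ShiLtJ) up to one of 2.68 ± 0.15 (CAST/EiJ), with n = 4 each and SDs as errors. Between Drd1+ neurons and astrocytes the adjusted p was 4.2e-04 (2.0e-05 to 0.0256), again for 1 of 5 members, beside 11.4% of all genes. In simulated data 26.1% of the 46 calls of this fit were unchanged genes. Between Drd1+ neurons and oligodendrocytes, where NOD/ShiLtJ and NZO/HlLtJ were the extremes in both, the adjusted p was 0.404.

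**Figure D5:**
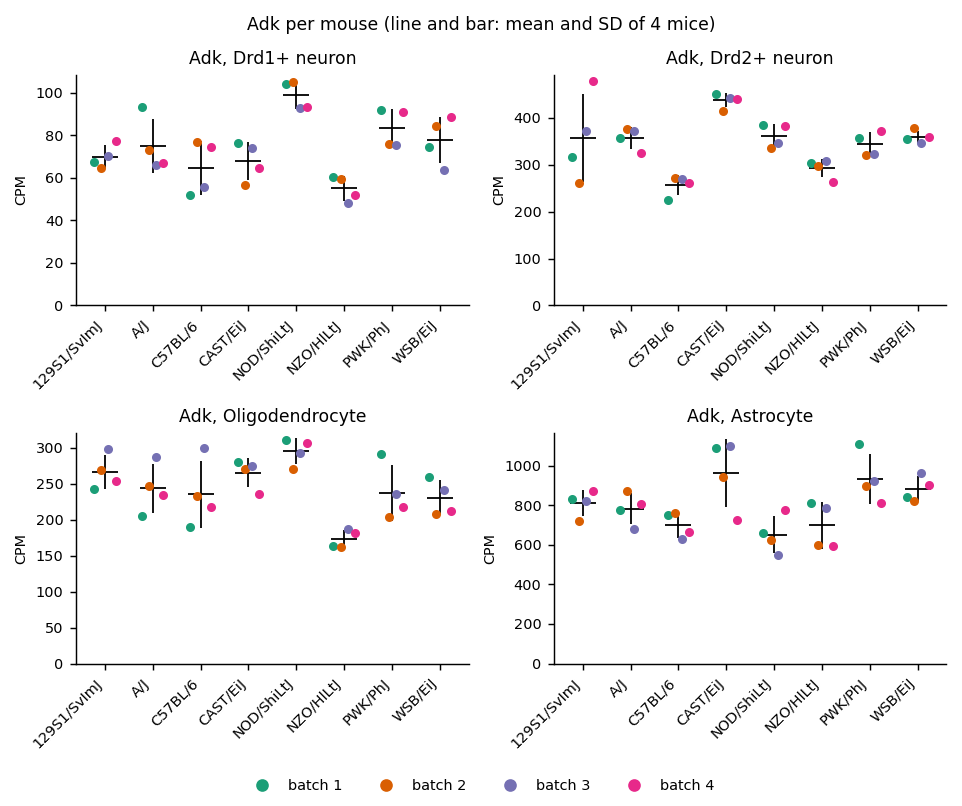
Adk level (CPM, vertical axis) of each mouse by strain (horizontal axis) in Drd1+ neurons, Drd2+ neurons, oligodendrocytes and astrocytes, with bars for the mean and SD of 4 mice. NOD/ShiLtJ has the highest mean in Drd1+ neurons (98.9 CPM) and the lowest in astrocytes (652), and NZO/HlLtJ lies below all others in oligodendrocytes (173).

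A list of 52 further genes of adenosine formation, breakdown, transport and reception was also followed. The calls numbered 18 of 29 tested genes (62.1%) for Drd1+ neurons, beside 61.7% of all genes, and 15 of 28 (53.6%) for Drd2+ neurons, beside 55.9%. For astrocytes they were 5 of 23 (21.7%), beside 21.5%. The share was 11 of 20 (55%) for oligodendrocytes, beside 34.8% of all genes, and 4 of 8 (50%) for macrophages, beside 24.8%. These differences between the list and all genes were not tested. In the second Drd1+ cluster 1 of 8 and in endothelium 1 of 11 were called (Nt5dc3 and Alpl), in Nxph1+ interneurons 0 of 6 and in the cluster Polydendrocyte/Oligodendrocyte 0 of 5, where edgeR gave 0 at an unadjusted p under 0.05. The called genes with the largest test statistic in each cluster are described.

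Ectonucleotidases upstream of Nt5e were among the leading genes in neurons. Entpd3, which splits ATP and ADP outside the cell, was at 76.4 ± 8.19 CPM in CAST/EiJ and 25.2 ± 6.63 in C57BL/6 Drd1+ neurons (adjusted p = 1.3e-12), and at 73.6 ± 15.3 and 19.9 ± 5.33 in Drd2+ neurons (1.0e-12). Entpd1, or CD39, which does the same, had the opposite place in CAST/EiJ, where it was lowest. It was at 8.82 ± 3.06 CPM there against 51.2 ± 9.36 in NOD/ShiLtJ, the highest by mean, in Drd1+ neurons (6.8e-06, with A/J highest in the fit), and at 5.95 ± 3.72 against 27.3 ± 7.91 in A/J in Drd2+ neurons (2.6e-06). In macrophages, whose Entpd1 level was much higher, it ran from 398 ± 50.4 CPM in PWK/PhJ to 770 ± 213 in 129S1/SvImJ (2.9e-05). The 129S1/SvImJ macrophage libraries are those where the 4 listed astrocyte markers summed to 4612 CPM. Over all strains, 129S1/SvImJ included, macrophages held Slc1a3 of that list at 799.8 CPM, Gja1 at 49.6 and Aqp4 at 25.3. The part of astrocyte RNA in the Entpd1 value of 129S1/SvImJ macrophages was not tested. Ampd3, an AMP deaminase that draws AMP away from adenosine, was at 46.5 ± 7.59 CPM in WSB/EiJ and 23.5 ± 4.19 in CAST/EiJ Drd2+ neurons (1.3e-07). Enpp5, of the family of nucleotide pyrophosphatases, was at 91.3 ± 17.2 CPM in C57BL/6 and 57.6 ± 10.9 in CAST/EiJ Drd1+ neurons (3.2e-07).

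In astrocytes the receptor Adora2b, which couples to stimulatory G proteins, separated the strains. Its level was 131 ± 61.5 CPM in NOD/ShiLtJ and 118 in PWK/PhJ, against 28.1 in A/J and 17.8 ± 11.1 in C57BL/6 (strain term adjusted p = 7.1e-19). Entpd2 was at 115 ± 43.8 CPM in PWK/PhJ and 44.1 ± 8.58 in A/J astrocytes (2.4e-05). Ampd2 was called in astrocytes as well (0.00303), with the lowest mean in PWK/PhJ (11.1 ± 4.24 CPM). Its highest mean was in CAST/EiJ (42.5 ± 24.1), which has an astrocyte library of 23 nuclei and 38252 counts, while the fit placed C57BL/6 highest. In oligodendrocytes Ak3, an adenylate kinase of mitochondria, was at 107 ± 28.6 CPM in CAST/EiJ and 50.04 ± 14.6 in NZO/HlLtJ, and Hprt, the purine salvage enzyme, at 73.9 ± 15.9 in C57BL/6 against 28.5 ± 16.4 for PWK/PhJ (8.9e-05 for Ak3 and 1.2e-04 for Hprt). Entpd5 was at 74.9 ± 10.2 CPM in PWK/PhJ and 40.6 ± 6.67 in NOD/ShiLtJ oligodendrocytes (0.0018). In macrophages Slc29a3, a nucleoside transporter of lysosomes, was at 205 ± 36.9 CPM in PWK/PhJ and 73.2 ± 22.8 in WSB/EiJ (9.9e-04), and Pnp, which breaks down inosine, at 133 ± 26.8 in A/J and 54.2 ± 26.2 in C57BL/6 (0.00482).

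The genes most like each member across the 18 clusters were named by the Pearson correlation of log2(CPM + 1) over 15711 genes, as a description. Adora2a was likest Gpr6 (r = 0.93) and Penk (0.92), both marks of Drd2+ neurons, and then Hpca (0.77). Adora3 was likest Gm10384 (r = 0.996), Lrrc25 (0.990) and Gm33858 (0.989), with clusters other than macrophages at or near 0. Nt5e was likest Pik3c2b (0.82), Thsd4 (0.81) and F8 (0.80), and Adk was likest A830019P07Rik (0.81), Gm41836 (0.78) and Gjb6 (0.76). Adora1 was likest Arap2 (0.84), Fbxo31 (0.83) and Ank (0.82), and Slc29a1 was likest Nhs, Mrc2 (both 0.81) and Arid3a (0.80). Across the 32 mice, values were centred by batch in the tested cluster where a member was highest. Nt5e in Drd2+ neurons was likest Polb (r = 0.85), Slit2 (0.76) and Dip2b (0.75), and Adk in astrocytes was likest Abr (0.84), Wnk2 and Snd1 (both 0.80). Adora2a in Drd2+ neurons was likest Syt5, Adamts17 and Sv2a (0.72 to 0.73), Adora3 in macrophages was likest Creb3l2 (0.75), Rnf10 and Uggt1 (both 0.72), and Adora1 in oligodendrocytes was likest Mmd2, Dusp10 (both 0.67) and Rcan2 (0.62). Slc29a1 was not tested in its highest cluster and has no such genes. Points of the first kind share the mice, and points of the second share strain and batch.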

How the data were processed

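The data are gene counts of single nuclei from the striatum of 32 mice (10x Multiome), 8 strains in 4 batches, deposited as raw counts of UMIs per gene and nucleus. Per the submitters' processing notes, reads were handled with bcl2fastq 2.20.0.422 and Cell Ranger ARC 2.0.0 on mm10 (GRCm38). The authors' deposited table of nuclei, which holds categories and no measurement, gave strain, batch and cluster, and its deposited description says that nuclei were kept between 200 and 7500 genes with under 15% mitochondrial counts. The other columns of per-sample values numbered 0. Accessible regions came from the deposited peak list, of which positions alone were used.

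Counts were summed per mouse and cluster, keeping libraries of at least 10 nuclei and clusters with at least 3 mice of every strain. The strain term was tested with edgeR's quasi-likelihood F test (TMM, filterByExpr, batch as block) with Benjamini-Hochberg adjustment over all genes of a fit and a call at 0.05. Each strain was compared with the average of the remaining 7 in the same fit, and interactions of strain and cluster were fitted with mouse as block. All adjusted p-values printed come from these edgeR fits unless DESeq2 is named. The labels say that a batch number marks a shared batch, and deviations of mice of 1 batch correlated at 0.123 on average over 112 pairs (lowest -0.165), against -0.0405 for 336 pairs from different batches and strains. The labels name separate mice, so the spread is between animals. Levels are CPM over all counts of a library, and shares of nuclei were also taken after thinning to 1000 UMIs. All 55672 nuclei used carry the authors' singlet calls from DoubletFinder and, on RNA and on chromatin reads, from Demuxlet, so barcodes called doublets were not used, and no doublet caller was run here. Limits that a count of 0 allows use 3 counts and cover counting error only.

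The 6 members and all lists were chosen with earlier results of these data known. All members are named, with the 3 called genes of the largest F statistic per cluster from a list of 52 pathway genes, and the 3 genes of the highest correlation with each member. Alternatives were DESeq2's size factors and its likelihood ratio test, no filter on low counts, at least 20 nuclei, no batch block, each batch left out, and levels without Drd1+ nuclei that held a UMI of Drd2, Gpr6 or Penk. Leaving out the A/J mouse of batch 2, and those levels per strain, were added after seeing the data. The scripts were tested on simulated data, where the interaction fits, most of all the one with astrocytes, called more unchanged genes than the threshold allows, so their calls are less firm. The shares were 26.1% of 46 calls with astrocytes, 10.1% of 69 with oligodendrocytes and 8.9% of 146 between Drd1+ and Drd2+ neurons. Strain terms called too many unchanged genes as well in the second Drd1+ cluster (7.14% of 112 calls), over all nuclei (5.56% of 144) and in the cluster Polydendrocyte/Oligodendrocyte (50% of 2). Few of the genes made to change in the simulated data were recovered in endothelium, Nxph1+ interneurons and the cluster Polydendrocyte/Oligodendrocyte. Python 3.11.15, numpy 2.4.6, pandas 2.3.3, scipy 1.17.1, R 4.3.3, edgeR 4.0.16 and DESeq2 1.42.0 were used.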

Additional observations from a re-analysis of the deposited data

Results flagged for a closer look

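In Drd2+ neurons the Adora1 level of the NOD/ShiLtJ mouse of batch 3 was 26.6 CPM, apart from the other 3 mice of its strain at 30.7 to 31.3. It was the 1 library set apart among 112 groups of 4 mice examined, and chance alone sets apart about 1 in 20 such groups.

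The strain effect on a member differed between clusters in 3 tests of the difference itself with edgeR. For Adk the adjusted p was 1.2e-04 between Drd1+ and Drd2+ neurons, with the widest gap between the clusters in CAST/EiJ. For Adk between Drd1+ neurons and astrocytes it was 4.2e-04, where NOD/ShiLtJ was highest in the neurons and lowest in astrocytes. For Nt5e between Drd1+ neurons and oligodendrocytes it was 1.9e-11, where CAST/EiJ was lowest in the neurons and highest in oligodendrocytes.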

How the results depend on the processing

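No strain contrast called in the main fit and no interaction changed direction under the alternatives followed for it (0 of those computed). Contrasts without a call were not followed, nor were contrasts without the filter or with at least 20 nuclei. The direction of an interaction was taken between the strains at its extremes in the main fit. A reversal was therefore unlikely to show. Strain terms, counts of members and levels have no direction, so a reversal could not show in them. The count of members called by the strain term in astrocytes (1) ran from 0 to 2 with 1 batch left out. In the second Drd1+ cluster the count of 1 became 0 without a filter on low counts and 0 with DESeq2's likelihood ratio test, and ran from 0 to 1 with 1 batch left out. The count of members with an interaction was 1 in each pair of clusters. Between Drd1+ and Drd2+ neurons it was 2 without the filter and 1 to 2 with 1 batch left out. Between Drd1+ neurons and astrocytes it was 2 without the replicate block, 2 without the filter and 1 to 2 with 1 batch left out, Adora1 being the second. Between Drd1+ neurons and oligodendrocytes it was 2 without the replicate block and 2 without the filter, Adora2a being the second. Without Drd1+ nuclei that held a UMI of Drd2, Gpr6 or Penk, the Adora2a level there was 6.68 CPM in place of 10.7. Fewer genes or mice tested changed some of these counts by construction, and for the others the cause was not tested. Among strain terms of single members, 177 recomputed values kept a call, 13 lost one, 117 stayed without one and 1 gained one (Adora1 in astrocytes, adjusted p = 0.0149 without batch 3). These values include the alternative of at least 20 nuclei. That alternative removed no library where a member was called, so the calls kept under it were fixed in advance. Of the recomputed contrasts that had a call, 240 kept it and 61 lost it. Of the interactions, 21 kept a call, 77 stayed without one and 7 gained one. Counts were few for Adora3, at 0 to 24 per macrophage library. In single clusters other than the large Drd1+ and Drd2+ clusters, Slc29a1 had too few counts for a test.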
